A study of Homo sapiens with 12 samples.

Results

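Long intergenic noncoding RNA (LINC) genes are named by the human gene nomenclature as LINC followed by a number, a placeholder given to long noncoding RNA genes that lie between protein-coding genes and have no functional name. Members were the autosomal genes with such a symbol in GENCODE release 29 whose raw counts, summed over the 12 libraries of the study, reached 100. These were 149 of 1836 autosomal LINC genes and of 58037 genes counted. Of the others, 1687 were below the minimum, and 1010 of these held no count. The members were thus chosen by their summed counts and by no contrast. A gene that reached the minimum through the libraries where it was high had to differ between groups, however, so counts of members that passed a test are a description and support nothing. The members just inside the minimum were LINC01352 with 100 counts, LINC00518 with 103 and LINC01301 with 105, and the genes just outside were LINC01132 with 99, LINC00313 with 96 and LINC00592 with 95.

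Long noncoding RNAs are transcripts without a long open reading frame. Many are spliced, capped and polyadenylated like messenger RNAs, are made at low levels and differ strongly between cell types. Some act in the nucleus, next to the gene they come from or on chromatin elsewhere, and others bind proteins or microRNAs in the cytoplasm or hold a short reading frame that is translated. In breast cancer several LINC genes are studied as markers or regulators of invasion, epithelial-mesenchymal transition and stem-like states, while most have no known role.

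The RNA came from BT-549 and SUM149, established human cell lines of triple-negative breast cancer, which lacks estrogen receptor, progesterone receptor and HER2. Cells of each line carried CshRNA, the control, or MUC1shRNA, a short hairpin RNA against MUC1-C, the C-terminal subunit of the transmembrane mucin MUC1, with 3 libraries in each of the 4 groups. The labels also call the BT-549 controls vector, so an empty vector in place of a control hairpin is possible there. BT-549 was grown in RPMI1640 with insulin, and SUM149 in Ham's F-12 with insulin and hydrocortisone, so line and medium cannot be told apart. The labels of the BT-549 libraries carry a shared tag that those of SUM149 lack, and its meaning is not stated. Any shared handling of a line cannot be told apart from the line either. The hairpin's own sequence was not used here. Whether the 3 libraries of a group came from separate introductions of the hairpin is not stated in the labels, and the p-values cover just the spread among these libraries, which may be technical.

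Libraries held 16332364 to 21248768 counts in BT-549, 19392422 to 24140623 in SUM149 CshRNA and 7931614 to 9623924 in SUM149 MUC1shRNA, the shallowest group. Levels are given in CPM, counts scaled to the TMM-adjusted library total. MUC1 was at 53.3 CPM in BT-549 CshRNA and 4.63 in MUC1shRNA (log2 fold change -3.53, SE 0.14; edgeR adjusted p = 4.2e-07), and at 15 and 0.626 CPM in SUM149 (log2 fold change -4.59, SE 0.27; edgeR adjusted p = 1.8e-08). CshRNA 3 and MUC1shRNA 2 of BT-549 and CshRNA 3 of SUM149 stood apart from the replicates of their groups, with a chi-square per degree of freedom of 8.33 to 14.46 against 1.85 to 5.51 between the other replicates. Epithelial EPCAM was at 402 CPM in SUM149 CshRNA and 0.287 in BT-549 CshRNA, and mesenchymal ZEB1 at 0.116 and 59.4. Of 5 leukocyte markers 3 held counts, with a summed level of 3.72 to 8.02 CPM over the 4 groups and CD3E at 0. The 4 endothelial markers summed to 0.344 to 0.521 CPM in BT-549, and in SUM149 to 28.9 in CshRNA and 10.2 in MUC1shRNA, nearly all of it PECAM1, which was at 28.4 and 9.72. ESR1 stayed at or below 4.88 CPM and PGR at or below 0.517 in the 4 groups, while ERBB2 was at 36.6 to 58.6. Markers also differed between the arms of both lines. In BT-549 KRT8, an epithelial keratin, was at 44.5 CPM in CshRNA and 282 in MUC1shRNA, and KRT18 at 290 and 655. Of the 5 epithelial markers, only KRT8 and KRT18 rose past edgeR's test there. CDH1 did not pass, and KRT19 and EPCAM had too few counts to be tested. In SUM149 TP63, a basal transcription factor, was at 54.2 CPM in CshRNA and 2.34 in MUC1shRNA, and fibronectin FN1 at 767 and 3100. These 2 do not stand for their lists. Of the 5 basal markers, 3 rose and 2 fell past edgeR's test in SUM149. Of the 4 mesenchymal markers, 2 rose there, while VIM and CDH2 did not pass. The part of these states in the LINC results was not tested.

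The 149 genes together took little of each library, and about 2 times as much in SUM149 as in BT-549. Their summed level was 477.5 ± 16.7 CPM in BT-549 CshRNA, 492.6 ± 7.35 in BT-549 MUC1shRNA, 1011 ± 23.4 in SUM149 CshRNA and 863.5 ± 24.5 in SUM149 MUC1shRNA (SD, n = 3). In a bulk sample, fewer cells of a kind and less RNA per cell cannot be told apart. A mean of at least 1 CPM was reached by 62, 59, 112 and 101 members in the same order of groups, and 10, 9, 13 and 14 members made up 50% of the sum. LINC00665 led both BT-549 groups with 44.2 and 57.8 CPM, followed by LINC00641 with 41.6 and 35.1. In SUM149 CshRNA the highest were LINC00963 with 82.5 CPM, LINC00958 with 76.3 and LINC00665 with 59.0. In SUM149 MUC1shRNA LINC00665 led with 83.8 CPM, and LINC00963 had dropped to 30.2.

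**Figure D1:**
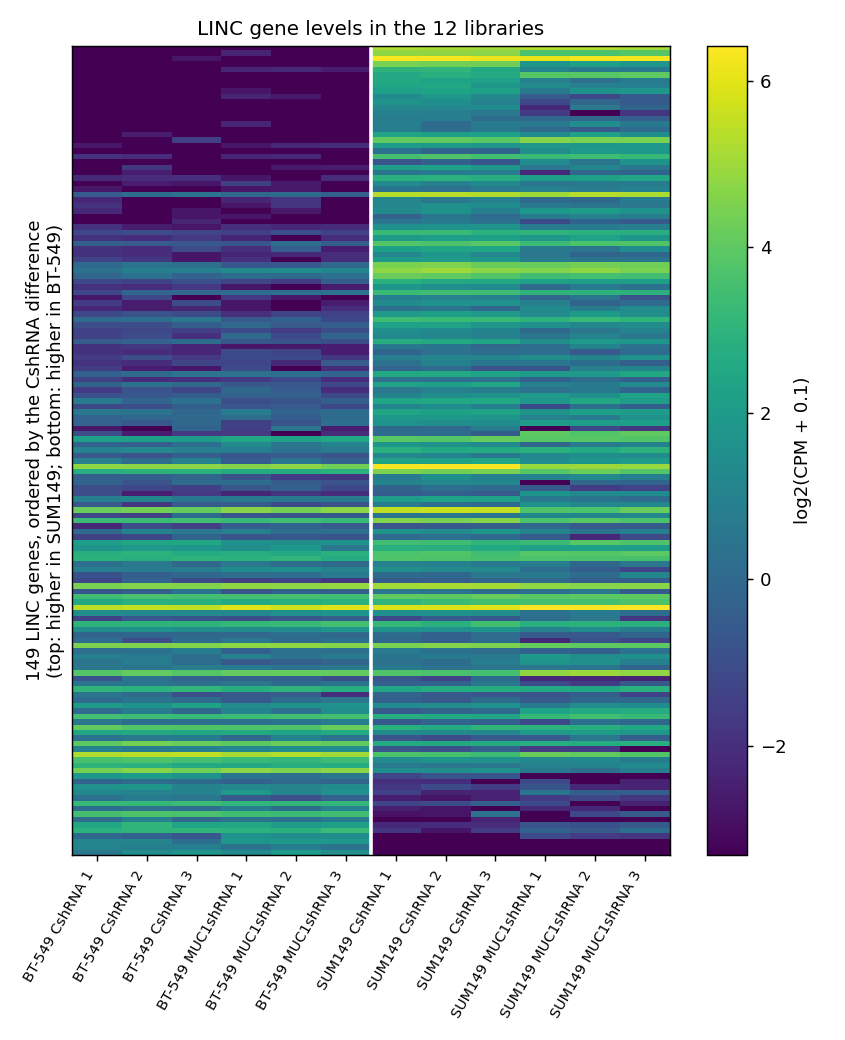
Levels of the 149 LINC genes (rows, ordered by the difference between lines in CshRNA cells) in the 12 libraries (columns), as log2(CPM + 0.1). The upper rows are dark in the 6 BT-549 libraries and bright in the 6 SUM149 libraries, and a shorter block at the bottom shows the opposite.

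The genes had 423 to 27600 exon bases with a median of 2646, and 20 had no transcript of more than 1 exon. They lay on all 22 autosomes, with the most on chromosome 1, which held 22. Exon bases were shared with another gene by 57 members, on either strand. No source used here states the strand setting of the counting, so reads of overlapping genes on opposite strands may not have been separated. Bases shared on the same strand cannot be separated by strand, as in LINC00284 (16.9% of its exon bases) and LINC00707 (16.6%). Per kilobase of exon, averaged over the 4 groups, the highest levels were those of LINC02474 with 13.4 CPM per kilobase, LINC00958 with 13.1, LINC00665 with 8.5, LINC00941 with 7.45 and LINC02001 with 5.84. LINC00294 with 5.49, LINC01137 with 4.82, LINC00460 with 4.57, LINC00641 with 4.56 and LINC01184 with 4.32 followed. LINC00941 shares 100% of its exon bases with AC010198.1 and a second entry of its own symbol, so its level is uncertain. Some of these were nearly absent from 1 line: LINC02474 was at 25.9 CPM per kilobase in SUM149 CshRNA and held no count in BT-549.

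Most members differed between the control cells of the lines, at a share near that of all genes, and the larger part was higher in SUM149. Of 149 tested in CshRNA cells, 130 passed edgeR's test (87.2%, against 83% of all 15649 genes tested). Of these, 29 were higher in BT-549 (39.5% of all genes tested were) and 101 in SUM149 (43.5% of all genes tested were). The median log2 difference, BT-549 minus SUM149, was -1.70 for members and -0.07 for all genes. Members with 1 line at 0 have no defined fold, and their smallest bound of 9.89-fold puts them beyond this median in any case. At least a 2-fold difference was past the test for 115 members (77.2%, against 47.6%), and the libraries of the lines did not overlap for 130 (87.2%, against 84% of all genes). Other lncRNA genes tilted the same way: among 1596 other lncRNA genes, 78.3% passed, and 78.7% of these were higher in SUM149, against 49.3% of genes that are not lncRNAs. Among the 4 groups, the choice by summed raw counts gave the most weight to SUM149 CshRNA, the deepest, and the least to SUM149 MUC1shRNA, the shallowest. Over both arms together, the BT-549 libraries held more counts than the SUM149 libraries. In MUC1shRNA cells 123 passed (82.6%, against 79.7% of all genes), 31 higher in BT-549 (38.9% of all genes tested) and 92 higher in SUM149 (40.8%). There 111 members differed at least 2-fold (74.5%, against 44.5%), 125 did not overlap (83.9%, against 81.5%), and 70.5% of other lncRNA genes passed. In the 6 BT-549 libraries together 12 members held no count and 62 held 100 or more, while in SUM149 these numbers were 3 and 117.

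The RNAs highest in SUM149 against BT-549 included several named in cancer research. LINC00958, also known as BLACAT2 and studied in bladder cancer spread (GRCh38 chromosome 11, 12961842 to 12989548, minus strand), was at 79.5, 80.3 and 69.2 CPM in SUM149 CshRNA. In BT-549 CshRNA it was at 0, 0 and 0.0522 CPM, which is too few counts for a fold. LINC02474 (chromosome 1, 221966341 to 221984964, plus strand) was at 38.2, 34.8 and 33.2 CPM in SUM149 CshRNA and at 0 in each BT-549 library, at least 614-fold higher against a floor of 3 counts over the BT-549 group. LINC02257, whose body overlaps that of LINC02474 on the opposite strand, was at 4.45, 4.97 and 4.56 CPM in SUM149 CshRNA and at 0 in BT-549 CshRNA, at least 80.9-fold higher. All SUM149 control libraries were thus above all BT-549 control libraries for these 3 genes.

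LINC01139, studied under the name LINK-A as a regulator of kinase signalling in triple-negative breast cancer, was at 27.9, 27.6 and 26.3 CPM in SUM149 CshRNA. It held no count in BT-549 CshRNA, so it was at least 474-fold higher in SUM149. LINC00689 was at 21.9, 20.3 and 19.5 CPM in SUM149 CshRNA and at 0 in BT-549, at least 357-fold higher. It shares 22.1% of its exon bases with VIPR2 on the opposite strand. LINC00598, LINC01550, LINC002481, LINC01956, LINC00659, LINC00639 and LINC01843 were at means of 2.32 to 7.42 CPM in SUM149 CshRNA and at 0 in BT-549 CshRNA, with bounds from 40.3-fold to 129-fold.

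Fewer RNAs were detected in BT-549 and had no count in SUM149 controls. LINC00355 was at 1.40, 2.52 and 3.29 CPM in BT-549 CshRNA, LINC01606 at 2.02, 1.73 and 1.72, and LINC01733 at 2.02, 2.06 and 1.04. Each held no count in any SUM149 library, which makes the control cells at least 55.4-fold, 42.0-fold and 39.3-fold higher in BT-549. LINC02167 was at 0.896, 0.730 and 0.522 CPM in BT-549 CshRNA and at 0 in SUM149 CshRNA, at least 16.5-fold higher in BT-549. LINC01194 and LINC01111 had means of about 1 CPM in BT-549 CshRNA and held at most 3 counts in SUM149 CshRNA.

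LINC01615 stood higher, at 7.39, 7.90 and 8.15 CPM in BT-549 CshRNA against 0.192, 0.0473 and 0.228 in SUM149 CshRNA. Its log2 difference was 5.56 (SE 0.30; edgeR adjusted p = 9.9e-11). LINC01291 and LINC01293 lie 1840 bases apart on chromosome 2, on the same strand, and both were higher in BT-549, by a log2 difference of 4.88 (SE 0.50) and 5.51 (SE 0.30). LINC01291 was uneven among SUM149 controls, with 0.0383, 0.0473 and 1.19 CPM, the high one being CshRNA 3. LINC00960, LINC02056 and LINC00702 differed by 4.35, 4.07 and 3.6 on the log2 scale. LINC01133, an RNA known to bind the splicing factor SRSF6 and studied in epithelial-mesenchymal transition, was at 20.8, 25 and 18.9 CPM in BT-549 CshRNA and at 2.80, 2.65 and 3.10 in SUM149 CshRNA. Its log2 difference was 2.91 (SE 0.13; edgeR adjusted p = 1.7e-11).

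**Figure D2:**
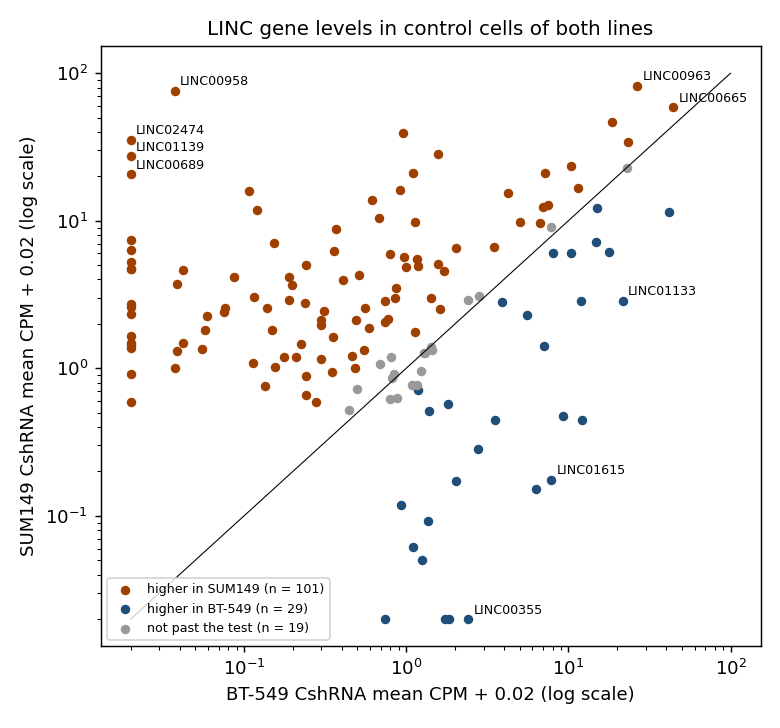
Mean level of each LINC gene in BT-549 CshRNA (x axis) and SUM149 CshRNA (y axis), as CPM + 0.02 on log scales (n = 3 libraries per group), with the diagonal of equal levels. The 101 genes higher in SUM149 fill the space above the diagonal, the 29 higher in BT-549 lie below it, and 19 did not pass the test.

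In SUM149, MUC1shRNA cells had lower levels of many LINC RNAs and higher levels of fewer. Of 129 members tested, 75 passed edgeR's test (58.1%, against 56.5% of all 14178 genes tested). Of these, 21 rose (27.6% of all genes did) and 54 fell (28.9% of all genes did). The share that changed was thus near that of all genes, while 72% of the members that changed were lower. The share of all genes depended on level, and most members were at low levels. Below 1 CPM 57.1% of members passed (33% of all genes), from 1 to 3 CPM 61.8% (41.1%) and from 3 to 10 CPM 57.6% (52.4%). At 10 CPM or more 51.9% of members passed (63.1% of all genes). The median log2 fold change was -0.39 for the members tested and -0.03 for all genes. Other lncRNA genes also fell more often than they rose: of 1230 tested, 138 rose and 401 fell (43.8% changed), with a median of -0.35, while genes that are not lncRNAs had 49.2% of their changes downward. The change was at least 2-fold for 44 members (34.1%, against 12.9%), and the arms did not overlap for 87 (67.4%, against 62.6%). The MUC1shRNA arm was the shallower one. With all SUM149 libraries thinned to the smallest total, 18 rose and 41 fell of 112 tested, and without CshRNA 3, 22 rose and 53 fell. The members had been chosen on the unthinned counts, to which the deeper CshRNA arm gave more. A gene high in CshRNA thus reached the minimum more easily, and thinning cannot show how far this tilted the set toward falls.

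**Figure D3:**
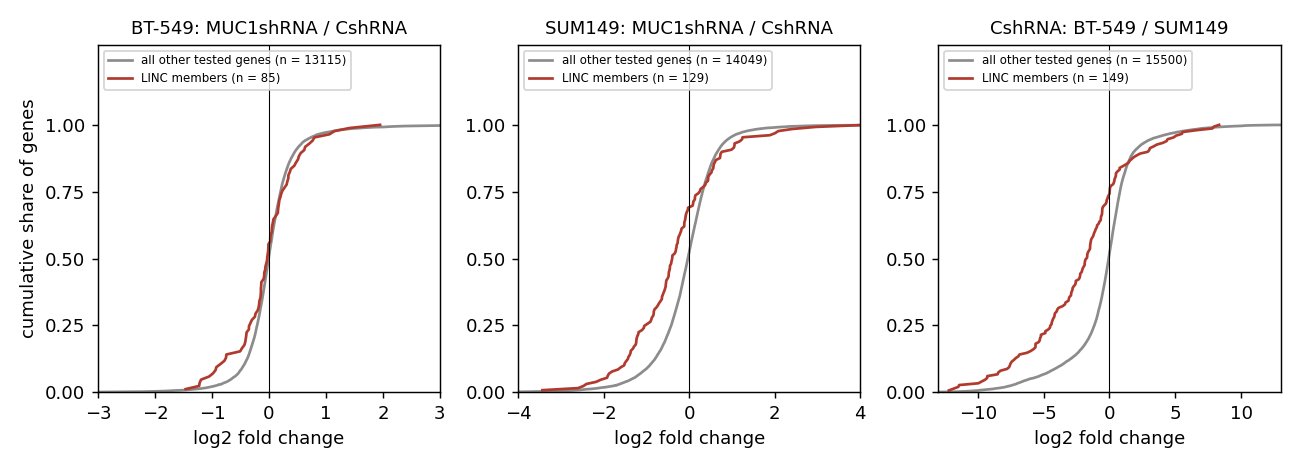
Cumulative share of genes (y axis) by log2 fold change (x axis) for the LINC genes tested (red) and all other genes tested (grey), in BT-549, in SUM149 and between the lines in CshRNA cells. In BT-549 the curves share a median near 0, and in SUM149 and between lines the LINC curve lies to the left.

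The largest rise in SUM149 was that of LINC00973 (chromosome 3, 98981058 to 98983096, plus strand, 2 exons). It was at 0.958, 0.993 and 0.639 CPM in CshRNA and at 15.8, 13.6 and 16.5 in MUC1shRNA (log2 fold change 4.14, SE 0.20; edgeR adjusted p = 2.8e-09). Every MUC1shRNA library was far above every control library. Its nearest protein-coding gene, DCBLD2, a neuropilin-like membrane receptor 79369 bases away, also rose, by 1.45 on the log2 scale. LINC00052, which lies nearest to the neurotrophin receptor gene NTRK3 and is studied in breast cancer, was at 0.575, 0.757 and 0.913 CPM in CshRNA and at 4.96, 6.02 and 6.36 in MUC1shRNA. Its log2 fold change was 2.96 (SE 0.25; edgeR adjusted p = 4.1e-07), and the arms did not overlap.

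LINC00294, an unspliced RNA of chromosome 11 (33076149 to 33079454, plus strand), carried more RNA. It was at 13.2, 12.1 and 11.4 CPM in SUM149 CshRNA and at 27.5, 30.9 and 27.5 in MUC1shRNA (log2 fold change 1.24, SE 0.10; edgeR adjusted p = 3.4e-07). CSTF3, a cleavage-stimulation factor gene whose body it lies in, rose by 0.69. LINC00294 shares 17.4% of its exon bases with genes on the opposite strand, CSTF3 among them. LINC01550 was at 5.83, 7 and 6.03 CPM in CshRNA and at 14.2, 14.5 and 15.7 in MUC1shRNA (log2 fold change 1.25, SE 0.13; edgeR adjusted p = 2.9e-06). In both genes the lowest MUC1shRNA library was about 2 times the highest control.

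Rises of low-level RNAs rest on few reads. LINC02015 went from a mean of 0.638 to 2.71 CPM, LINC01537 from 0.894 to 3.32 and LINC00518 from 0.570 to 2.27, with log2 fold changes of 2.08, 1.89 and 2.01. LINC01481, known as PRANCR and needed for progenitor renewal in epidermis, rose by 1.18 (SE 0.23), and LINC01303 and LINC02535 by 1.06 each. LINC00472, studied as a suppressor in breast cancer, rose by 1.05 (SE 0.28; edgeR adjusted p = 0.0063), from 1.61, 1.09 and 0.913 CPM to 3.07, 2.23 and 2.22. LINC00284, also called NRAD1 and known from stem-like triple-negative cells, was at 0.728, 1.28 and 0.959 CPM and at 1.53, 1.78 and 1.64, an increase of 0.76 (SE 0.29; edgeR adjusted p = 0.039). This call was lost under 10 of 15 other settings.

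Of the abundant LINC RNAs of SUM149, LINC00963, LINC00662 and LINC01139 fell, while LINC00665 rose and LINC00958, LINC00460 and LINC02474 did not pass the test. LINC00963, studied in the progression of prostate cancer (chromosome 9, 129483451 to 129513686, plus strand), was at 80.6, 83.4 and 83.4 CPM in CshRNA and at 30, 30.9 and 29.9 in MUC1shRNA. Its mean fell by 52.2 CPM, more than that of any other member (log2 fold change -1.43, SE 0.07; edgeR adjusted p = 3.2e-09). LINC00662 (chromosome 19, 27684580 to 27793940, minus strand) was at 45.0, 48.5 and 46.1 CPM and at 13.2, 12.6 and 17.6 (log2 fold change -1.66, SE 0.11; edgeR adjusted p = 6.1e-08). LINC01139, the RNA called LINK-A, was at 27.9, 27.6 and 26.3 CPM and at 12.2, 12.5 and 14.2 (log2 fold change -1.06, SE 0.10; edgeR adjusted p = 9.9e-07). In none of the 3 did the arms overlap.

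LINC00689 was at 21.9, 20.3 and 19.5 CPM in SUM149 CshRNA and at 3.19, 4.57 and 3.28 in MUC1shRNA (log2 fold change -2.47, SE 0.14; edgeR adjusted p = 1.5e-08). LINC00339 was at 24.3, 21.7 and 24.7 CPM and at 12.5, 14.5 and 12.5 (log2 fold change -0.83, SE 0.10). It shares 40.9% of its exon bases with genes on the opposite strand. LINC00598, which overlaps FOXO1, a forkhead transcription factor gene, was at 8.01, 8.32 and 5.93 CPM and at 2.01, 1.45 and 1.45. It changed by -2.18 (SE 0.22; edgeR adjusted p = 2.8e-06), and FOXO1 fell by 1.31 on the log2 scale. LINC00598 shares 1.47% of its exon bases with FOXO1 on the same strand. FOXO1 was at 223 CPM in SUM149 CshRNA, so reads of the 2 genes may not have been fully separated. LINC01503, an RNA known from squamous carcinoma as a target of TP63, was at 4.49, 5.30 and 5.20 CPM and at 1.42, 1.23 and 2.60 (log2 fold change -1.47, SE 0.25; edgeR adjusted p = 2.7e-04).

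Beside LINC00689, LINC00598 and LINC00662, most of the steep falls were of low-level RNAs with few counts in the shallow arm. LINC01686 went from 1.84, 1.70 and 1.37 CPM to 0.236, 0 and 0.193, a log2 fold change of -3.43 (SE 0.50), and its neighbour RGS16, a regulator of G-protein signalling, fell by 1.73. LINC02593, next to SAMD11, changed by -2.60 (SE 0.58), LINC00659 by -2.40 (SE 0.33), LINC00639 by -2.07 (SE 0.34), LINC00882 by -1.92 (SE 0.35), LINC01003 by -1.90 (SE 0.23), LINC01140 by -1.87 (SE 0.47), LINC002481 by -1.80 (SE 0.23) and LINC01843 by -1.60 (SE 0.42). LINC002481 lies 2550 bases from S100P, a calcium-binding protein gene that rose by 0.23. LINC01133, the SRSF6-binding RNA, was at 2.80, 2.65 and 3.10 CPM in CshRNA and at 1.42, 1.11 and 1.73 in MUC1shRNA (log2 fold change -0.98, SE 0.24; edgeR adjusted p = 0.0039). The other members that fell ranged from -0.39 to -1.52 on the log2 scale.

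**Figure D4:**
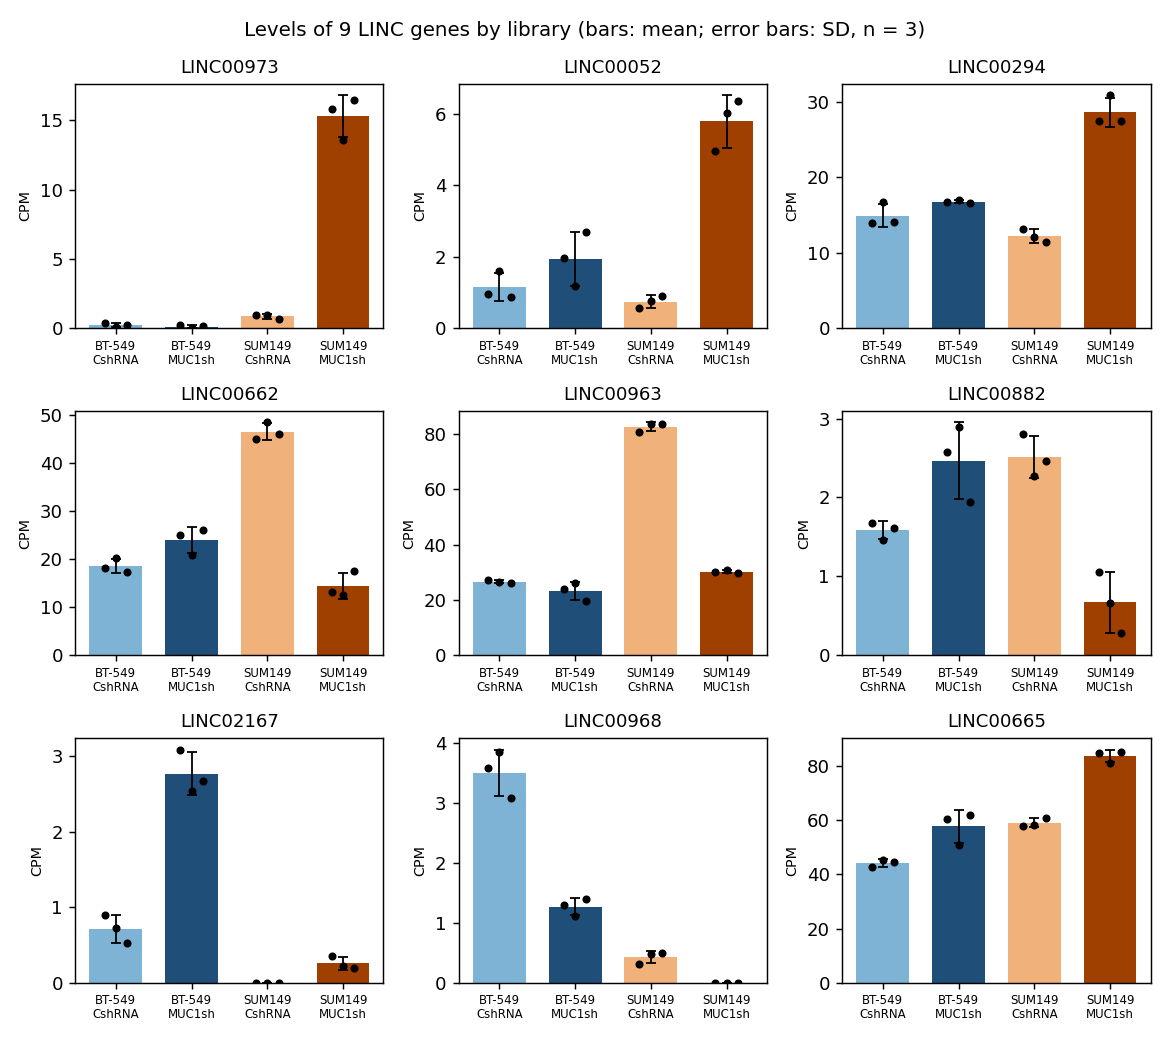
CPM of 9 LINC genes in each of the 12 libraries (points), with the group mean (bars, from 0) and SD (error bars, n = 3). LINC00973 and LINC00052 are high in SUM149 MUC1shRNA, LINC00963, LINC00662 and LINC00882 are low there, and LINC02167 and LINC00968 differ between the arms of BT-549.

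In BT-549 a smaller share of the LINC RNAs tested than of all genes changed, though the share of all genes depended on level. Of 85 members tested, 17 passed edgeR's test (20%, against 33.3% of all 13200 genes tested), 8 higher (16.8% of all genes) and 9 lower (16.5% of all genes). Below 1 CPM 26.9% of 26 members passed (15.3% of all genes), and from 1 to 3 CPM 17.2% of 29 (20.8%). From 3 to 10 CPM 6.67% of 15 members passed (28.5% of all genes), and at 10 CPM or more 26.7% of 15 (38.3%). The median log2 fold change was -0.03 for the members tested and -0.01 for all genes. The other 64 members had too few counts in BT-549 to be tested. A change of at least 2-fold was past the test for 9 members (10.6%, against 4.73%), the arms of 30 did not overlap (35.3%, against 47%), and 12.2% of other lncRNA genes passed. The count rests on single libraries: it was 7 without CshRNA 1, 7 without MUC1shRNA 1 and 10 without MUC1shRNA 3. Without CshRNA 3 and MUC1shRNA 2, the libraries that stood apart, 19 were called, 11 of them among the 17.

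The changes with the smallest adjusted p in BT-549 were those of LINC02167, LINC00968, LINC00565, LINC00665 and LINC01733, and none of these calls was lost under any setting in which the gene was tested. LINC02167 was at 0.896, 0.730 and 0.522 CPM in CshRNA and at 3.09, 2.54 and 2.68 in MUC1shRNA (log2 fold change 1.95, SE 0.24; edgeR adjusted p = 3.6e-04). LINC00968 was at 3.58, 3.85 and 3.08 CPM and at 1.29, 1.12 and 1.40 (log2 fold change -1.46, SE 0.19; edgeR adjusted p = 4.7e-04). LINC01733 was at 2.02, 2.06 and 1.04 CPM and at 3.50, 3.54 and 3.54 (log2 fold change 1.06, SE 0.24; edgeR adjusted p = 0.0077). The arms did not overlap in any of these 3 genes.

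LINC00565, now named SWINGN, was at 4.31, 5.24 and 5.48 CPM in BT-549 CshRNA and at 3.09, 2.71 and 3.14 in MUC1shRNA (log2 fold change -0.75, SE 0.16; edgeR adjusted p = 0.0059). LINC02056 fell by 1.22 on the log2 scale (SE 0.29), from a mean of 1.34 to 0.572 CPM, and passed under every setting in which it was tested. LINC00674 rose by 1.15 (SE 0.30), from 0.784, 0.663 and 1.04 CPM to 2.37, 1.3 and 1.94, a call lost under 2 of 16 other settings. The other calls in BT-549 were lost under 4 or more other settings each. Among them LINC01301 rose by 1.42 (SE 0.43), and LINC01311, LINC02381, LINC01588, LINC00638, LINC02535 and LINC00886 fell by 1.21, 1.19, 1.05, 0.98, 0.94 and 0.35 on the log2 scale.

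Of the 66 members tested in both lines, 1 rose in both, 1 fell in both, 4 rose in BT-549 and fell in SUM149, and 1 fell in BT-549 and rose in SUM149. Of the 12125 genes tested in both lines, 5.97%, 5.11%, 4.79% and 5.14% did so in the same order. The RNA that rose in both was LINC00665, a noncoding RNA gene of chromosome 19 (36313067 to 36331718, minus strand) known to hold a reading frame for a micropeptide studied in triple-negative breast cancer. It was at 42.7, 45.3 and 44.5 CPM in BT-549 CshRNA and at 60.6, 50.7 and 62.0 in MUC1shRNA (log2 fold change 0.38, SE 0.08; edgeR adjusted p = 0.0062). In SUM149 it was at 58.0, 58.1 and 60.9 CPM and at 84.9, 81.1 and 85.3 (log2 fold change 0.52, SE 0.06; edgeR adjusted p = 1.4e-05). Its rise of 24.8 CPM in SUM149 was the largest of any member, and all MUC1shRNA libraries lay above the controls of their line. LINC00638 fell in both lines, by 0.98 (SE 0.33; lost under 11 of 15 other settings) in BT-549 and by 1.29 (SE 0.22) in SUM149.

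The responses of the lines differed for 41 of 149 members by edgeR's test of the difference (27.5%, against 39.6% of all genes), 23 with the higher log2 fold change in BT-549 (19.5% of all genes) and 18 in SUM149 (20.1% of all genes). The difference was at least 2-fold for 30 (20.1%, against 12.6%), and 18.3% of other lncRNA genes passed. LINC00662 had the smallest adjusted p. It was at 18.2, 20.2 and 17.4 CPM in BT-549 CshRNA and at 25.1, 20.9 and 26.1 in MUC1shRNA (log2 fold change 0.37, SE 0.10; edgeR adjusted p = 0.021), while it fell in SUM149. The difference of the responses was 2.05 (SE 0.16; edgeR adjusted p = 2.4e-07). In BT-549 the rise was lost under 5 of 16 other settings. LINC00882 had the same pattern at low level: in BT-549 it was at 1.68, 1.46 and 1.62 CPM and at 2.57, 2.89 and 1.94, and in SUM149 at 2.80, 2.27 and 2.46 CPM and at 1.06, 0.669 and 0.289. The difference was 2.57 (SE 0.42; edgeR adjusted p = 2.0e-04), and its call in BT-549 alone was lost under 10 of 16 other settings.

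LINC01184, now SLC12A2-DT, the divergent transcript of the chloride cotransporter gene SLC12A2, was at 21.9, 24 and 23.9 CPM in BT-549 CshRNA and at 28.0, 27.1 and 29.3 in MUC1shRNA. In SUM149 it was at 33.0, 35.2 and 34.6 CPM and at 26.8, 25.1 and 25.8, so the order of the arms was opposite in the lines. The difference was 0.68 (SE 0.10; edgeR adjusted p = 7.6e-05). LINC01578, now CHASERR, a regulator of the chromatin remodeller gene CHD2 beside it, was at 22.2, 22.8 and 23.6 CPM and at 26.9, 27.8 and 24.3 in BT-549, which did not pass the test (log2 fold change 0.20, SE 0.08; edgeR adjusted p = 0.079). In SUM149 it was at 21.8, 24.1 and 22.3 CPM and at 17.1, 16 and 15.3 (log2 fold change -0.48, SE 0.10; edgeR adjusted p = 8.2e-04). The difference was 0.70 (SE 0.12; edgeR adjusted p = 2.4e-04).

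For LINC00963 the log2 fold change was -0.20 in BT-549 (95% interval -0.43 to 0.03) and -1.43 in SUM149, a difference of 1.25 (SE 0.12; edgeR adjusted p = 1.5e-06). The log2 fold change of LINC00294 was 0.17 in BT-549 (95% interval -0.04 to 0.38) and 1.24 in SUM149, a difference of -1.05 (SE 0.14; edgeR adjusted p = 2.2e-05). That of LINC00339 was -0.03 (SE 0.11) in BT-549 and -0.83 in SUM149, a difference of 0.82 (SE 0.14; edgeR adjusted p = 3.9e-04). LINC00973 was too low in BT-549 for its own test, at 0.392, 0.0663 and 0.209 CPM in CshRNA and at 0.206, 0 and 0.134 in MUC1shRNA, and the difference was -5.07 (SE 0.81; edgeR adjusted p = 1.6e-04). LINC00674 and LINC02535 also moved in opposite directions, by 1.15 and -0.94 in BT-549 and by -1.05 and 1.06 in SUM149.

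**Figure D5:**
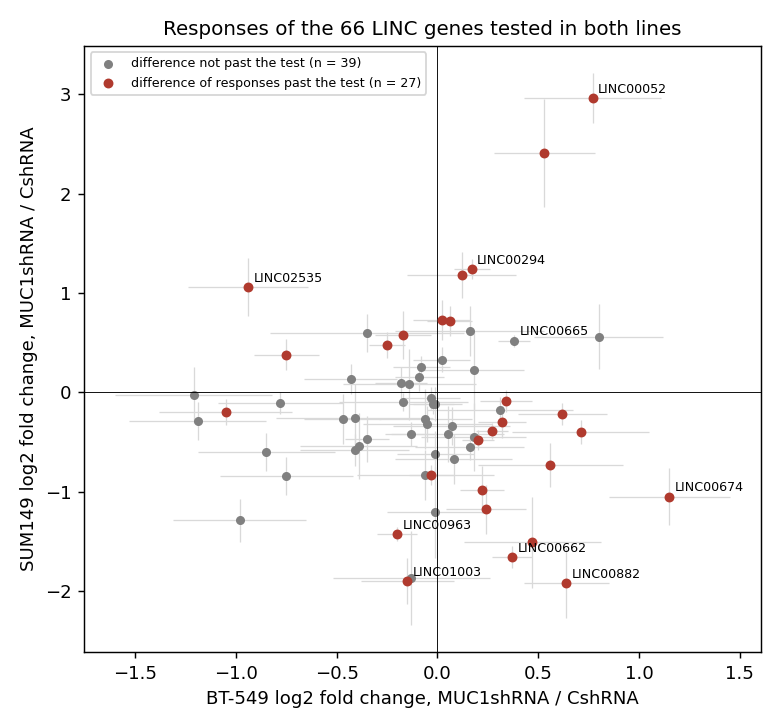
Log2 fold change, MUC1shRNA against CshRNA, in BT-549 (x axis) and SUM149 (y axis) for the 66 LINC genes tested in both lines, with SE as error bars. In red are the 27 genes whose responses differed past the test. LINC00665 lies in the upper right, and LINC00662, LINC00882 and LINC00674 in the lower right, where BT-549 rose and SUM149 fell.

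Several of the most abundant LINC RNAs of SUM149 did not pass the test there. LINC00958 was at 79.5, 80.3 and 69.2 CPM in CshRNA and at 66.5, 78.0 and 77.8 in MUC1shRNA, with a log2 fold change of -0.03 and a 95% interval of -0.21 to 0.15. LINC02474 was at 39.2, 39.0 and 34.7 CPM in MUC1shRNA, with a log2 fold change of 0.10 (95% interval -0.09 to 0.29). LINC00460, studied in epithelial-mesenchymal transition, was at 40.0, 39.7 and 37.9 CPM and at 32.1, 40.0 and 36.9 (log2 fold change -0.10, 95% interval -0.29 to 0.10). The intervals of these 3 genes exclude a 2-fold change in either direction.

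LINC00511, an RNA studied for its growth-promoting role in breast cancer, was at 21.6, 22.9 and 18.7 CPM in SUM149 CshRNA and at 17.6, 20.9 and 19.4 in MUC1shRNA (log2 fold change -0.11, 95% interval -0.35 to 0.12). In BT-549 it was at 0.896, 1.26 and 1.1 CPM and at 0.515, 0.531 and 0.869, which did not pass the test (log2 fold change -0.78, SE 0.31; edgeR adjusted p = 0.079). LINC00707 rose in SUM149, from 16.3, 16.5 and 14.9 CPM to 24.7, 21.9 and 21.7 (log2 fold change 0.53, SE 0.10; edgeR adjusted p = 4.5e-04), and was near 0 in BT-549. LINC01137, now ZC3H12A-DT, was at 13.8, 12.7 and 14.5 CPM in SUM149 CshRNA and at 9.79, 12.5 and 13.5 in MUC1shRNA and did not pass the test (log2 fold change -0.18, 95% interval -0.45 to 0.10), while ZC3H12A, 141 bases away, rose by 0.57. LINC02001, now SNHG30, a small nucleolar RNA host gene, had a log2 fold change of 0.33 in SUM149 (95% interval 0.04 to 0.61; edgeR adjusted p = 0.051). LINC00641 was higher in BT-549, at 37.9, 42.0 and 44.8 CPM in CshRNA, with a log2 fold change of -0.25 there (SE 0.09; edgeR adjusted p = 0.054) and of 0.48 in SUM149 (SE 0.13; edgeR adjusted p = 0.0084).

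Beside the LINC genes, 45 long noncoding RNAs with functional names were followed, of which 44 were in the table. In BT-549 5 rose and 5 fell of 30 tested, where 33.3% of all genes changed. OIP5-AS1 rose from 90.7 to 128 CPM (log2 fold change 0.50, SE 0.06) and FGD5-AS1 from 178 to 213 (0.26, SE 0.05). The snoRNA host genes SNHG16 and SNHG7 fell by 0.45 and 0.69 on the log2 scale. In SUM149 4 rose and 20 fell of 35 tested, where 27.6% of all genes rose and 28.9% fell, and the median was -0.40 (-0.03 for all genes). SNHG8, SNHG1, GAS5 and EPB41L4A-AS1 had the smallest adjusted p. SNHG1 went from 314 to 125 CPM (log2 fold change -1.32, SE 0.07) and GAS5, a growth-arrest RNA that hosts snoRNAs, from 204 to 91.0 (-1.15, SE 0.07). SNHG8 fell by 1.68 and EPB41L4A-AS1 by 1.71. Every tested gene of the list with an SNHG symbol fell in SUM149, as GAS5 did, so the count of falls leans on snoRNA host genes. The responses of the lines differed past edgeR's test for 18 of the 39 tested (39.6% of all genes), each with the higher log2 fold change in BT-549 (19.5% of all genes).

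The nearest protein-coding gene lay at a median distance of 11995 bases from a member. It overlapped the member's body for 27, was within 10000 bases for 67 and farther than 100000 bases for 30. Of the 17 members called in BT-549, 11 had a tested neighbour. Of these neighbours 1 had an unadjusted p under 0.05 by edgeR, and it missed the threshold after adjustment. For other lncRNA genes called in BT-549, 38 of 84 tested neighbours changed, where 33.3% of all genes did. Of the 75 called in SUM149, 53 had a tested neighbour. Of these neighbours 32 changed, where 56.5% of all genes did. The change was in the direction of the LINC gene for 19 and against it for 13 (59.4% in the same direction). For other lncRNA genes 294 of 466 tested neighbours changed, 208 of the 294 in the same direction (70.7%). Between the lines in CshRNA cells, 97 members past the test had a tested neighbour. It differed for 77 of them, where 83% of all genes did. For 56 of the 77 it differed in the member's direction (72.7%), against 68% for other lncRNA genes. A neighbour shared by several genes entered these shares once for each, as DUSP10 did for LINC01655, LINC02257 and LINC02474. KPNA2, an importin gene 55066 bases from LINC00674, rose by 1.17 in SUM149 while LINC00674 fell. NT5E, the gene of the ecto-nucleotidase CD73, 59398 bases from LINC02535, rose by 2.01 there together with LINC02535.

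Promoter sequences from RefSeq (GRCh38.p14), 250 bases before to 50 after the start, matched 106 of 149 members by symbol. For 47 the RefSeq start lay within 10 bases of the GENCODE start. Each promoter was searched on both strands for 5 motifs, each matched separately. The AP-1 motif was TGANTCA, the composite site of C/EBP and ATF factors was TGATGCAA, and the core of the box bound by TBP was TATAAA. The motif of the factor NF-Y was CCAAT, and that of E-box factors was CACGTG. Shares are of 106 member promoters and of 35116 promoters in the table. CCAAT was in 43.4% of member promoters and 34.6% of all, TGANTCA in 10.4% and 7.71%, CACGTG in 9.43% and 7.26%, TATAAA in 7.55% and 11.5%, and TGATGCAA in 0.943% and 0.866%. In SUM149, CCAAT was in 8 of 17 promoters of members that rose, 18 of 43 that fell and 17 of 37 that did not pass the test. The median GC content was 48% for those that rose, 65.7% for those that fell and 60.7% for those that did not pass. These are descriptions, and a match is not a bound site.

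The promoters of 4 abundant or oppositely changing members are shown for their different makeup, chosen after their values were seen. LINC00662 and LINC00882 rose in BT-549 and fell in SUM149, LINC00665 rose in both, and LINC00294 rose in SUM149. Each is written 5′ to 3′ on the gene's strand, with CCAAT, or ATTGG where the match is on the other strand, in capitals. LINC00662 is at chr19:27793891-27794190 (minus strand), LINC00882 at chr3:107240589-107240888 (minus), LINC00665 at chr19:36331669-36331968 (minus) and LINC00294 at chr11:33075900-33076199 (plus).
LINC00662: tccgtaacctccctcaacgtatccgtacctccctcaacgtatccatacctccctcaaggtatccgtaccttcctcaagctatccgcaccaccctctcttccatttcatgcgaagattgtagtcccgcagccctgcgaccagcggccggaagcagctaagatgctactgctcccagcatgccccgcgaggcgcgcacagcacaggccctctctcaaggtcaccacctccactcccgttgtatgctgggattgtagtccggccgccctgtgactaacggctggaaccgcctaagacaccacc
LINC00882: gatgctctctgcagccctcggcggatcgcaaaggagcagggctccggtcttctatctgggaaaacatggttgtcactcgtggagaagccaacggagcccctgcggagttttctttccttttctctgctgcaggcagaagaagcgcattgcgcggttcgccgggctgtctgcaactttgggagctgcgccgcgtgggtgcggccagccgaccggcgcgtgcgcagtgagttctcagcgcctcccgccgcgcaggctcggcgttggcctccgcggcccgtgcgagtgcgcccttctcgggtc
LINC00665: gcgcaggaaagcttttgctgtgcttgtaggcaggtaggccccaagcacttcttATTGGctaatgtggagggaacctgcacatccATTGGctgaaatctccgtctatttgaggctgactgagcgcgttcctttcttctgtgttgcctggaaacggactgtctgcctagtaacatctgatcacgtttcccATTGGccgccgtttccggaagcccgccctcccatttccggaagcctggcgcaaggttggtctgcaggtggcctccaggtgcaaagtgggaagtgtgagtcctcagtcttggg
LINC00294: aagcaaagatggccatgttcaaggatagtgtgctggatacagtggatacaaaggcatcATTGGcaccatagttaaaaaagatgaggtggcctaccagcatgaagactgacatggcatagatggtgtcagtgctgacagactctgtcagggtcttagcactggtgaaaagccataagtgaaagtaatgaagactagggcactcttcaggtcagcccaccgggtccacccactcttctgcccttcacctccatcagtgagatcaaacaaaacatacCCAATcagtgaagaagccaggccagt
None of the 5 motifs was in the LINC00662 or LINC00882 windows, whose GC content was 59.3% and 66%. The LINC00665 window held CCAAT 3 times, each on the opposite strand, at a GC content of 55.3%. The LINC00294 window held it 2 times, once on each strand, at a GC content of 48%.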

How the data were processed

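RNA sequencing libraries from 12 samples (TruSeq Stranded mRNA kit, per the labels' protocols) were analysed from 1 table of raw counts per Ensembl gene that the authors deposited without normalization. The build GRCh38.p7 and the tools STAR 2.7.0, CASAVA 1.8.2 and DESeq2 1.24.0 appear in the submitters' processing notes, with no role. No source used here states how reads were counted, or with which strand setting and annotation.

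Of 58037 rows, 57433 matched a gene of GENCODE 29 by identifier, which gave symbols and coordinates. Copies of genes on the pseudoautosomal part of the Y chromosome, 45 rows, were left out. Separate fits for each line used edgeR 4.0.16 (R 4.3.3; TMM scaling, filterByExpr defaults, quasi-likelihood test), and contrasts between lines and the difference of responses, BT-549 minus SUM149, with all 12 libraries. Benjamini-Hochberg adjustment was over all genes tested, with a threshold of 0.05. The SE is the absolute log2 fold change over the square root of the F statistic, and 95% intervals use the t distribution with the degrees of freedom of the fit. The scripts were tested on simulated counts. Depth was 7931614 to 24140623 counts per library. The nearest protein-coding gene was the one with the smallest distance between gene bodies.

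Named members were those with the 12 largest changes in each direction within each line and between lines in CshRNA cells, among members past the test, with groups that did not overlap and at least 30 counts in the higher group. To these were added the 8 members with the smallest adjusted p for the difference of responses, the 10 highest per kilobase, 14 RNAs known from cancer research (8 of them members), and the 3 genes on each side of the count minimum. Nearest protein-coding genes were named beside members, and of 45 other lncRNAs the 4 per line that had the smallest adjusted p. Any further member was named after its values were seen. The members and lists were chosen with earlier results of these data known. Alternatives were RLE and upper-quartile scaling, other filters, DESeq2 1.42.0, limma-voom (limma 3.58.1), a replicate block, thinning, other count minimums, members without shared exon bases, leaving out libraries, and, added after seeing the data, the symbols of a newer name table.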

Additional observations from a re-analysis of the deposited data

Results flagged for a closer look

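The 27 members below are those named in the report among the 41 for which the test of the difference itself, edgeR's contrast of the MUC1shRNA responses in BT-549 and SUM149, passed at an adjusted p below 0.05. Values are log2 differences, BT-549 minus SUM149. Responses were higher in SUM149 for LINC00973 (-5.07), LINC02056 (-2.92), LINC02015 (-2.79), LINC01293 (-2.29), LINC01615 (-2.20), LINC00052 (-2.18), LINC02535 (-1.98), LINC00702 (-1.88), LINC00565 (-1.11), LINC00294 (-1.05), LINC01481 (-1.05), LINC01588 (-0.83) and LINC00641 (-0.70). Of these, LINC02056, LINC01293 and LINC01615 were too low in SUM149 for their own test. They were at 0.0473 to 0.228 CPM in its CshRNA libraries and at 0.193 to 1.06 in MUC1shRNA. LINC00973 and LINC02015 were too low in BT-549. The sizes given for these genes thus rest on few counts in 1 line. Responses were higher in BT-549 for LINC01184 (0.68), LINC01578 (0.70), LINC00339 (0.82), LINC01133 (1.2), LINC00963 (1.25), LINC01003 (1.77), LINC00662 (2.05), LINC00674 (2.22) and LINC00882 (2.57). In 5 further genes 1 group held no count, so the fitted size depends on the prior count and is no bound. These were LINC00707 (-4.30), LINC02167 (-3.17), LINC00968 (4.38), LINC00659 (5.55) and LINC00598 (6.0).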

How the results depend on the processing

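The direction of every named call was kept under the settings tried. So was that of each split between higher and lower calls, except that the near-even split in BT-549 moved either way. Changes of sign were not counted for named members that passed neither in the main fit nor under the other setting. The count of 17 members in BT-549 was 9 with DESeq2 and 7 with a replicate block by title number. It ran from 7 to 17 when single libraries were left out, and was 19 without CshRNA 3 and MUC1shRNA 2. No pairing by title number was seen in the deviations of libraries from their group means. Those of same-numbered libraries correlated at -0.365 to 0.152 in BT-549 and -0.059 to 0.1 in SUM149, and not every library correlated best with its own number. With 3 libraries per group, this cannot show whether same-numbered libraries were handled together. With the block the counts were 73 in SUM149, 131 and 123 between lines and 37 for the difference of responses. Leaving out single libraries gave 61 to 75 in SUM149, 123 to 130 between lines in CshRNA cells, 120 to 125 in MUC1shRNA cells and 34 to 42 for the difference. Thinning all libraries to the smallest total left 25 members for the difference of responses, of 124 tested. Among the 92 members that share no exon base with another gene, 49 passed in SUM149, 81 and 76 between lines and 27 for the difference, a smaller set by construction. Of the named calls in BT-549, MUC1 included, 27 of 154 values under other settings and 52 of 125 with a library left out no longer passed, against 7 of 304 and 4 of 201 in SUM149. The cause was not tested. Under upper-quartile scaling the median difference of all genes between lines in CshRNA cells was -0.19 against -0.07, and 25 members were higher in BT-549 and 102 in SUM149. Over all genes, the 4398 calls in BT-549 became 1505 higher and 1446 lower with the block. Depth limits the members near 1 CPM, most of all in SUM149 MUC1shRNA.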
